A study of Bos taurus with 32 samples.

Results

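The pituitary of 8 male Holstein calves was compared by embryo origin, with 4 calves from in vitro embryo production (IVP) and 4 control calves from in vivo conception (MOET). These 8 libraries were taken by tissue label from 32, the other 24 being hypothalamus, testicle and adrenal of the same animals. MOET embryos came from donor cows given ovarian superstimulation and then inseminated, and embryos of both kinds developed in recipient cows. The IVP calves were 3208, 3209 and 5833, each 103 days old at collection, and 5841, 98 days old. The MOET calves were 3217 and 3218, both 102 days old, 5932, 104 days old, and 3213, 144 days old. The labels name no treatment or genotype beyond embryo origin, and each library is 1 calf. The sources used here do not say whether a pituitary piece held the anterior lobe, the posterior lobe or both.

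The pituitary is the gland below the brain that releases growth hormone, prolactin, corticotropin, thyrotropin and the gonadotropins into the blood under control of the hypothalamus. Its anterior lobe is built of several endocrine cell types, each devoted largely to 1 hormone, and the messenger RNA of a few secreted hormones is known to fill a large part of all its messenger RNA. A change in a single hormone gene or in a single cell type can therefore move the composition of a whole library. In bulk tissue, fewer cells of a type and less RNA per cell cannot be told apart.

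The count table carries Ensembl gene identifiers only, and 0 of them could be paired with a symbol here. Hormones, receptors and cell type markers could thus not be named, and the tissue label could not be checked on known markers. The most abundant genes are described by their rank in counts, and 4 genes by identifier. Counts are not scaled to gene length, so the rank of a gene is a rank in reads and not in molecules.

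The tissue label was instead set against the other tissues of the same calves. Genes with a level at least 8-fold above each of the 3 other tissues numbered 197 for the pituitary, and they held 24.1% (IVP 5841) to 38.3% (MOET 3218) of the counts of each pituitary library. Genes chosen in the same way for the hypothalamus, 524 in all, held 0.178% to 0.273%, and the 308 of the testicle held 0.0766% to 0.105%. The choice used these same libraries, by tissue and not by embryo origin. Pituitary totals ran from 20164948 to 23380330 counts.

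The library of MOET calf 3213 stood apart from the other 7. Its counts lay closer to the scaled mean of the other 3 MOET pituitaries than counting noise allows for a separate library. The median squared deviation from that mean, divided by the expected count, was 0.00350, where Poisson counting alone gives 0.455 and the other 7 pituitary libraries gave 1.33 to 4.74. Of 13110 genes with an expected count of at least 50, 92.8% were within 2% of the mean of the other 3, against 10.7% to 23.2% in the other pituitary libraries. The columns of calf 3213 in the 3 other tissues and the adrenal column of IVP 5833 also fell below the Poisson value, so 5 of 32 columns did. What produced these columns was not tested. Calf 3213 was also the only calf older than 104 days, and its age and its library cannot be told apart. Results are given with all 8 libraries and with 7, without MOET 3213, and MOET means and SDs are over calves 3217, 3218 and 5932.

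**Figure D1:**
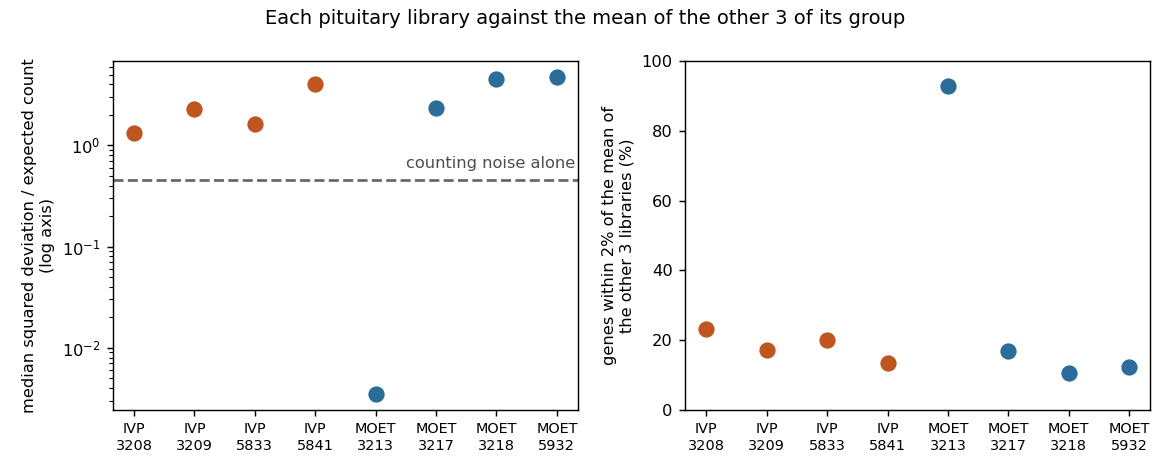
Each of the 8 pituitary libraries against the scaled mean of the other 3 libraries of its group. The left panel shows the median squared deviation over the expected count on a log axis, with a dashed line at the value of Poisson counting (0.455), and the right panel the percentage of genes within 2% of that mean. MOET 3213 lies at 0.00350 and 92.8%, and the other libraries lie above the dashed line and between 10.7% and 23.2%.

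With 7 libraries, 378 genes differed between IVP and MOET pituitaries, 161 higher (1.01% of those tested) and 217 lower (1.36%) in IVP. All 378 were also among the 2417 genes called with 8 libraries, in the same direction. The 8 libraries include the 7, and the added column lies near the MOET mean. This overlap and shared direction were thus largely set beforehand and are no separate check. Genes were called at a Benjamini-Hochberg adjusted p below 0.05 by the quasi-likelihood test of edgeR. The share called was 2.37% of 15979 genes tested with 7 libraries and 15.3% of 15807 with 8, where 7.51% were higher and 7.78% lower. Fold changes of the 2417 genes were alike in both fits, with a median size of 0.33 on the log2 scale in each, while the median SE was 0.074 with 8 libraries and 0.089 with 7. Before adjustment, 5363 genes had p under 0.05 with 8 libraries and 3931 with 7. The 2 groups did not overlap in 22.5% of the genes tested with either set, and this was so for each of the 378.

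The size of the count rested on single calves as well. Starting from 8 libraries it was 782 without IVP 3208, 1314 without IVP 3209, 1400 without IVP 5833 and 2365 without IVP 5841. With a MOET calf other than 3213 left out it was 1992 (3217), 1885 (3218) and 2822 (5932). Starting from 7 it was 1 without IVP 3208, 8 without IVP 3209, 13 without IVP 5833, 15 without IVP 5841, and among MOET calves 23 with 3218 left out, 91 with 3217 left out and 750 with 5932 left out. Scaling to library totals alone, in place of TMM factors, gave 342 genes with 8 libraries, 232 higher and 110 lower, against 1187 higher and 1230 lower with TMM. With 7 libraries the split was 39 higher and 10 lower, against 161 and 217. Library totals moved the median log2 fold change of all genes from 0.00 to 0.06 with 8 libraries and from 0.00 to 0.07 with 7.

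Most differences were small. Of the 378 genes, 70.4% changed by less than 1.5-fold, and the median size was 0.44 on the log2 scale (median SE 0.08). Over 2-fold differences were found for 26 higher and 23 lower genes, and over 4-fold differences for 9 higher and 8 lower genes. Genes over 2-fold higher had a median level of 3.41 CPM, the read count scaled by library total and TMM factor, and those over 2-fold lower one of 2.01 CPM. The 135 genes that rose and the 194 that fell by less than 2-fold had median levels of 41.7 and 39.3 CPM.

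ENSBTAG00000021565 was read in every IVP pituitary and in no MOET pituitary except for 1 count in the column of calf 3213. Counts were 3615, 3574, 3845 and 4211 in IVP 3208, 3209, 5833 and 5841, and 0 in each of MOET 3217, 3218 and 5932. The level in IVP was 169 ± 10.1 CPM (SD, n = 4). Against a floor of 3 counts over the MOET group, the gene was at least 3814-fold higher in IVP, and its edgeR adjusted p was 1.74e-10 with 8 libraries and 2.62e-07 with 7. The gene passed in each alternative fit, with adjusted p up to 5.79e-05. Outside the pituitary, on a scale common to all tissues, 3 IVP adrenals had 1075 to 1232 CPM and 3 MOET adrenals were at 0, with the columns of IVP 5833 and MOET 3213 left aside. Without MOET 3213, the IVP hypothalamus had 30.5 to 57.1 CPM against 0 to 0.0496 in MOET, and the IVP testicle 37.0 to 52.6 CPM against 0.0494 to 0.639, so the 3 MOET testicles held some reads. Without strand information, reads of this gene and of a gene on the opposite strand cannot be told apart.

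This presence in 1 group and absence in the other was rare. With 7 libraries, 2 genes had at least 10 counts in every IVP pituitary and 0 in every MOET pituitary, and 0 genes had the reverse. The other gene, in place 4 by p among those that rose, had 24, 24, 35 and 30 counts in the IVP calves and 1 count in the column of calf 3213. It was at least 28.3-fold higher in IVP against the same floor. A further gene, in place 10 by p, had 12 to 28 counts in IVP and a single count over the 3 MOET calves, a ratio of 60.8 with a 95% exact counting interval of 10.6 to 2431, which covers counting error only. These 2 genes were singled out after their values were seen.

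ENSBTAG00000001474 rose and was read in both groups. Its level was 53.8, 46.6, 46.0 and 63.3 CPM in IVP 3208, 3209, 5833 and 5841, and 16.5, 21.1 and 18.2 CPM in MOET 3217, 3218 and 5932, with 18.3 CPM in 3213. The lowest IVP calf had over 2 times the level of the highest MOET calf. Group levels were 52.4 ± 8.10 CPM (SD, n = 4) and 18.6 ± 2.29 CPM (SD, n = 3). The log2 fold change was 1.49 with SE 0.13 and an edgeR adjusted p of 0.00927 with 7 libraries. In the hypothalamus, on the scale common to all tissues, IVP calves had 75.6 to 123.8 CPM and 3 MOET calves 86.9 to 111.9 CPM, and the groups overlapped.

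ENSBTAG00000012121 and ENSBTAG00000005658 fell. ENSBTAG00000012121 was at 32.9, 35.0, 34.6 and 33.7 CPM in the IVP calves, in the order above, and at 47.9, 51.4 and 49.3 CPM in MOET 3217, 3218 and 5932, with 49.5 CPM in 3213. Each group spread over less than 4 CPM, and the gap between the groups was wider than either spread. The means were 34.1 ± 0.920 CPM (SD, n = 4) and 49.5 ± 1.74 CPM (SD, n = 3). The log2 fold change was -0.55 (SE 0.06, edgeR adjusted p = 0.00927 with 7 libraries). ENSBTAG00000005658 was at 55.5, 58.9, 56.8 and 49.0 CPM in IVP and at 87.6, 89.4 and 91.4 CPM in MOET, with 89.7 CPM in 3213. Its means were 55.1 ± 4.24 CPM (SD, n = 4) and 89.5 ± 1.88 CPM (SD, n = 3), and its log2 fold change was -0.71 (SE 0.07, edgeR adjusted p = 0.00927 with 7 libraries). Both genes also had a lower median in IVP in each other tissue, without MOET 3213 and the adrenal column of IVP 5833. The groups overlapped there, except for ENSBTAG00000005658 in the testicle. On the scale common to all tissues it had 3.95 to 6.54 CPM in IVP testicles and 8.33 to 9.28 CPM in MOET.

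The 12 genes of smallest p among those higher with 8 libraries, and the 12 among those lower, also passed with 7. These 24 were picked from the 8 libraries, which include the 7, so passing again is no separate check. Those 12 that rose had log2 fold changes of 0.38 to 13.2 with a median of 1.61, and 4 of them changed by less than 2-fold. The 13.2 is that of ENSBTAG00000021565, with 0 counts in MOET 3217, 3218 and 5932. Its size is set by the fit (14.9 with 7 libraries), and the counts give only a floor. The 12 that fell spanned 0.38 to 0.70 with a median of 0.53, and all 12 changed by less than 2-fold. Over all 378 genes the directions were closer, with medians of 1.54 and -1.37 for the 26 and 23 genes over 2-fold and of 0.39 and -0.41 for those under it. None of the 24 had a level 8-fold above the other tissues.

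How often a gene was called depended on its level. The genes were divided into 5 bins of equal number by mean level over the libraries. With 8 libraries, 8.29% were called in the lowest bin (0.29 to 3.24 CPM), then 11.2%, 15.9% and 20.7%, and 20.5% in the highest bin (54.1 CPM and above). With 7 libraries the shares were 0.876%, 1.53%, 2.07%, 3.69% and 3.66%. The share of genes called thus levelled off between the upper pair of bins in both sets.

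The size of the difference followed level in the opposite order. The median absolute log2 fold change of all genes in a bin went down from 0.31 to 0.12 with 8 libraries and from 0.32 to 0.12 with 7, and the median SE from 0.24 to 0.06 and from 0.30 to 0.07. Called genes had a median size of 1.69 in the lowest bin and 0.34 in the highest with 7 libraries. Of the 49 genes over 2-fold there, 27 lay in the lowest bin, and 13, 2, 3 and 4 in the bins above it. In the lowest bin with 7 libraries the median size over all genes, 0.32, was close to the median SE, 0.30. Where the SE is larger, a gene also needs a larger difference to be called. The bins differ in counting precision as well as in level, and the part of precision in these shares and sizes was not tested.

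**Figure D2:**
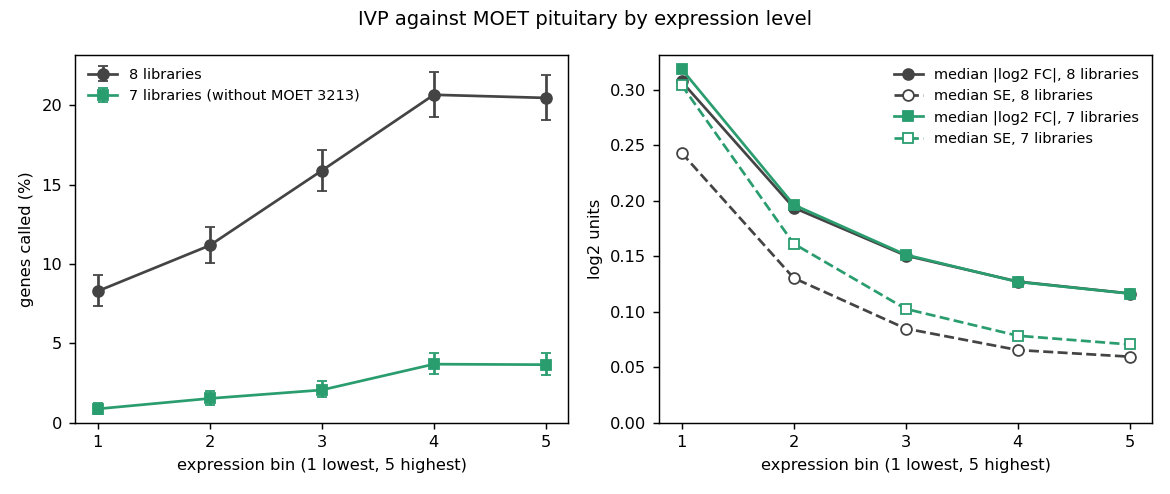
Genes called and effect sizes for IVP over MOET in 5 expression bins of equal gene number. The left panel shows the percentage called with 95% exact binomial intervals, which treat genes as independent, and the right panel the median absolute log2 fold change (solid) and median SE (dashed), each with 8 and with 7 libraries. The percentage called rises from 8.29% to 20.5% with 8 libraries and from 0.876% to 3.66% with 7, while the median absolute fold change goes down to 0.12 in both.

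Genes were also grouped by their pituitary level relative to their highest level in the other tissues, and these groups were not tested against each other. Over all genes tested, 1.01% were called higher and 1.36% lower with 7 libraries, and the median log2 fold change was 0.00. Of 4214 genes 2- to 8-fold below another tissue, 23 rose and 80 fell with 7 libraries, with a median of -0.09, and 171 and 451 of 4168 with 8. Of 914 genes over 8-fold below, 8 rose and 11 fell, with a median of -0.10, and 30 and 74 of 874 with 8. The 9813 genes within 2-fold of another tissue gave 108 higher and 114 lower, with a median of 0.03, and 873 and 636 of 9737 with 8. Of 872 genes 2- to 8-fold above every other tissue, 17 rose and 8 fell, with a median of 0.07, and 97 and 57 of 862 with 8. Of 166 genes over 8-fold above, 5 rose and 4 fell, with a median of -0.05, and 16 and 12 with 8. These splits depended on the scaling. With library totals, an alternative chosen after seeing the data, the genes 2- to 8-fold below gave 10 higher and 2 lower with 7 libraries and 51 and 41 with 8. The medians then ran from -0.04 over 8-fold below to 0.14 at 2- to 8-fold above with 7 libraries, beside 0.07 over all genes. The class medians under TMM are thus close in size to the shift between scalings, which moved all classes by a like amount. The order of the class medians was the same under both. With 7 libraries, genes 2- to 8-fold below and above had medians of -0.09 and 0.07 under TMM, and -0.02 and 0.14 with library totals.

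Reads were concentrated in few genes in all pituitaries. The most counted gene alone held 20.9%, 17.1%, 20.5% and 13.8% of the counts of IVP 3208, 3209, 5833 and 5841. It held 20.5%, 26.0% and 11.5% in MOET 3217, 3218 and 5932, and 19.2% in 3213. The MOET calves thus took both the highest and the lowest share. The second gene held 6.57% to 9.62% in IVP and 5.80% to 10.4% in MOET. Both genes had a mean level over 1000-fold that of any other tissue, and the first was read 1.78 to 2.61 times as often as the second in each library.

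The share of the 10 most counted genes did not differ detectably between origins. It was 34.4%, 32.2%, 35.3% and 27.1% in IVP 3208, 3209, 5833 and 5841, and 36.1%, 40.9% and 28.1% in MOET 3217, 3218 and 5932, with 34.5% in 3213. The means were 32.2 ± 3.68% (SD, n = 4) and 35.0 ± 6.47% (SD, n = 3). A two-sided exact permutation test gave p = 0.457 without calf 3213 and p = 0.371 with it, with adjusted p of 0.771 and 0.637 over 12 shares tested. The 100 most counted genes held 42.4 ± 3.16% in IVP (SD, n = 4) and 44.6 ± 6.13% in MOET (SD, n = 3), with exact permutation p of 0.514 without calf 3213 and 0.486 with it. IVP 5841 and MOET 5932 had the lowest shares of their groups for both sets.

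**Figure D3:**
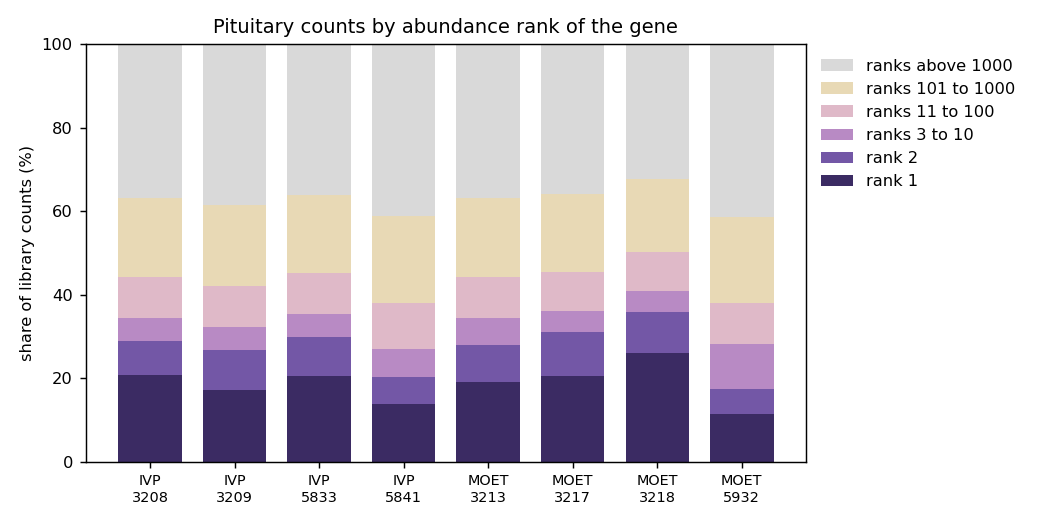
Percentage of the counts of each pituitary library held by the most counted gene, the second, and the genes from rank 3 to 10, from there to rank 100, from there to rank 1000, and the rest, ranked by abundance over the 8 libraries. The most counted gene takes 11.5% (MOET 5932) to 26.0% (MOET 3218), and ranks 3 to 10 take 10.8% in MOET 5932 against 4.95% to 6.71% in the other 7 libraries.

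Among the single genes, the ranks 4 to 7 were divided by origin, though none of the 4 passed adjustment over the 12 shares or the fit over all genes without calf 3213. Two-sided exact permutation p was 0.0286 for each with 8 libraries, the smallest that 4 against 4 calves allow (adjusted p = 0.0857), and 0.0571 with 7, the smallest for 4 against 3 (adjusted p = 0.171). The value with 8 libraries counts the column of 3213 as a separate calf. That column lies near the mean of the other MOET libraries, so it falls on their side and this p is too small. Each other permutation p with calf 3213 likewise rests on a column that is not separate. Over all genes tested, the groups were likewise divided for 22.5%, with 11.5% higher and 10.9% lower in IVP with 8 libraries and 11% and 11.5% with 7.

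The gene of rank 4 had the widest range. It held 0.216%, 0.393%, 0.195% and 0.280% of the counts in IVP 3208, 3209, 5833 and 5841, and 0.530%, 0.506% and 6.04% in MOET 3217, 3218 and 5932, with 1.96% in 3213. MOET 5932 was over 10-fold above the other 2 MOET calves, and these lay above the highest IVP calf. The level of this gene, as a mean over the 8 pituitaries, was 75.2-fold that of the highest other tissue. That mean, and the rank in counts, rest largely on MOET 5932 and the column of 3213. Its log2 fold change was -3.05 (SE 0.89) with 7 libraries, with an edgeR adjusted p of 0.111 there and 0.0386 with 8, over a range of 0.00163 to 0.324 in the alternative fits.

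The gene of rank 5, 23.1-fold above the other tissues, leaned the other way. It took 1.07%, 0.947%, 1.07% and 1.86% of the counts in the IVP calves and 0.878%, 0.672% and 0.450% in MOET 3217, 3218 and 5932, with 0.654% in 3213. MOET 3217 came close to IVP 3209, and IVP 5841 stood above the other IVP calves. The log2 fold change was 0.77 (SE 0.30) with 7 libraries, and the gene missed the threshold in edgeR with both sets (adjusted p = 0.168 with 7 and 0.0678 with 8).

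The gene of rank 6 was at 0.964%, 0.738%, 0.778% and 1.17% in IVP and at 0.626%, 0.526% and 0.425% in MOET 3217, 3218 and 5932, with 0.526% in 3213. Its log2 fold change was 0.69 (SE 0.21), with an edgeR adjusted p of 0.0955 with 7 libraries and 0.0307 with 8. The gene of rank 7 was at 0.574%, 0.665%, 0.646% and 0.514% in IVP and at 0.768%, 0.777% and 0.997% in MOET, with 0.855% in 3213, and its log2 fold change was -0.56 (SE 0.13, edgeR adjusted p = 0.0603 with 7 libraries and 0.0168 with 8). Both had levels 6.91- and 7.95-fold above the highest other tissue. In share of counts, MOET 5932 lay farthest from the IVP calves in each of the 4 genes. On the TMM scale the gene of rank 7 was highest in MOET 3218.

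The genes of rank 3, 8, 9 and 10 were read at lower levels in the pituitary than in at least 1 other tissue. Their groups overlapped. Log2 fold changes with 7 libraries were 0.06 (SE 0.11), -0.10 (SE 0.10), -0.07 (SE 0.14) and 0.09 (SE 0.10), and edgeR adjusted p ran from 0.573 to 0.782.

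**Figure D4:**
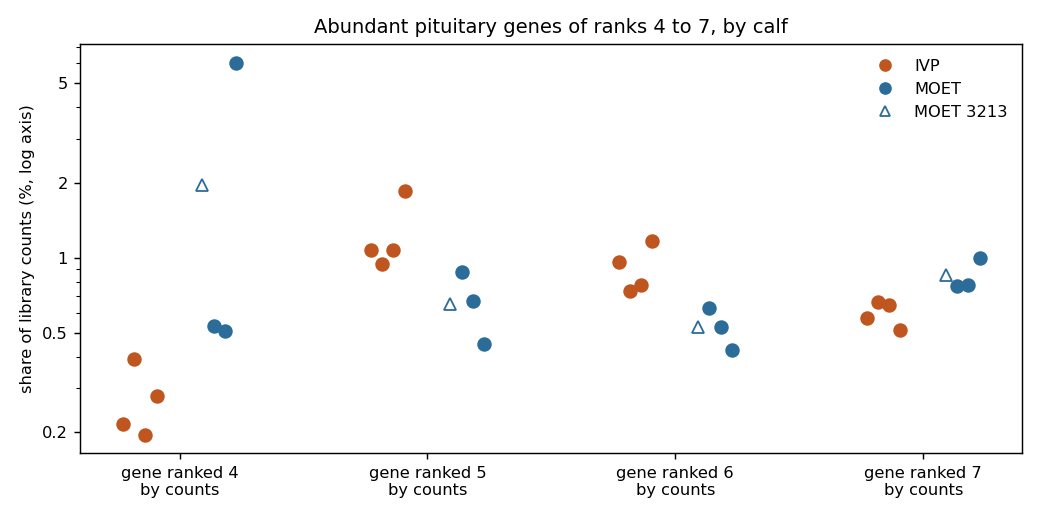
Share of library counts, on a log axis, of the genes ranked 4 to 7 by counts in the 8 pituitaries. Filled circles are calves, and the open triangle is MOET 3213, whose counts lie near the mean of the other 3 MOET libraries. For ranks 4 and 7 each MOET point lies above each IVP point, for ranks 5 and 6 below, and MOET 5932 reaches 6.04% for rank 4.

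MOET calves were more spread than IVP calves once calf 3213 was left out. The SD of log2 CPM over calves had a median over genes of 0.122 in IVP (4 calves) and 0.161 in MOET (3 calves), and any 3 of the 4 IVP calves gave 0.0947 to 0.124. MOET had the larger SD in 64.4% of genes. An SD above 1 was found for 156 genes in IVP and 330 in MOET, 113 of them shared. With 8 libraries the medians were 0.121 and 0.131, with the column of calf 3213 near the centre of its group. The difference in spread between the origins was not tested.

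Calves 5932 and 3218 carried the MOET spread. The root mean square distance of a library from the mean of the rest of its group, over genes, was 0.293 to 0.330 on the log2 scale in the 4 IVP calves. It was 0.359 in MOET 3217, 0.490 in 3218 and 0.549 in 5932, so each MOET calf lay beyond each IVP calf, though a mean over 2 calves is less precise than one over 3. With 8 libraries, calf 3213 was at 0.0917 and the other 7 at 0.272 to 0.471, and 3213 was the farthest member of its group in 19 of 15807 genes (0.120%). IVP 5841 was the farthest member of its group in 39.6% of genes.

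Calves 3218 and 5932 also differed from each other. The first principal component of log2 CPM held 42.2% of the variance and put MOET 3218 at one end (-48.0). MOET 3213 was at -21.9, 3217 at -16.9 and 5932 at 2.11, and the IVP calves ran from 11.6 to 30.7. Each IVP calf thus lay above each MOET column on this component, a division that was not tested. The second held 26.1% and put MOET 5932 at -45.7, with the other calves from -10.5 to 22.9. TMM factors ran from 0.860 in MOET 3218, where the 10 leading genes held most of the counts, to 1.12 in MOET 5932 and 1.10 in IVP 5841, where they held least.

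Spread narrowed with level in both origins. In the lowest bin the median SD was 0.314 in IVP and 0.369 in MOET (3 calves), and in the highest bin 0.0701 and 0.105. MOET had the larger SD in 59.4% of genes in the lowest bin and in 69.7% in the highest.

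**Figure D5:**
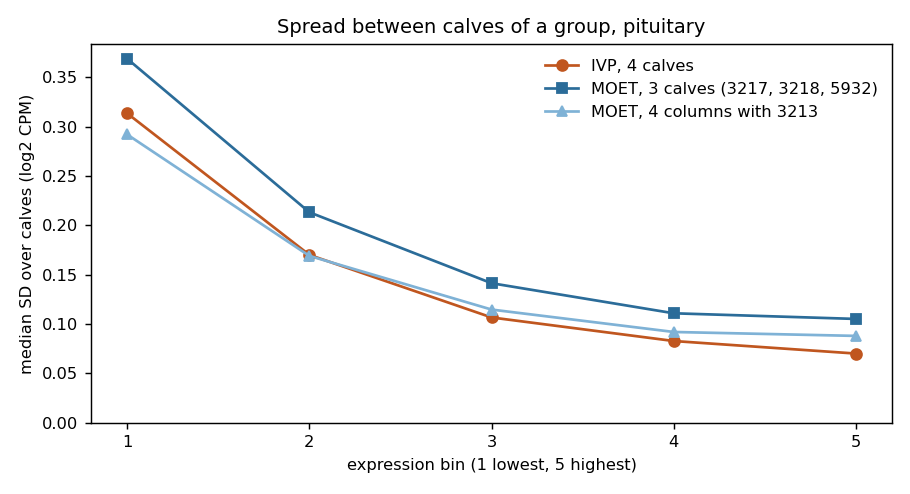
Median SD of log2 CPM between calves of a group in 5 expression bins, for 4 IVP calves, 3 MOET calves and the 4 MOET columns with 3213. The 3 MOET calves lie above the IVP calves in each bin, from 0.369 against 0.314 in the lowest to 0.105 against 0.0701 in the highest. The 4 MOET columns lie below the 3 calves in each bin, from 0.292 in the lowest to 0.0880 in the highest.

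The difference between origins in the pituitary was also set against the mean difference in hypothalamus, testicle and adrenal, within calves. With 8 calves, 7 of 18242 genes differed (0.0384%), 4 with a pituitary effect above the mean of the other tissues and 3 below, in limma with Benjamini-Hochberg adjustment on 1 value per calf, and 6 of the 7 were among the genes called in the pituitary. Without calf 3213 a single gene of 18442 passed (0.00542%), and the same gene passed when the adrenal column of IVP 5833 was left out as well (limma adjusted p = 0.00978). Before adjustment, 2597 genes had p under 0.05 with 8 calves. The gene that passed without calf 3213 was the one with 24 to 35 counts in the IVP pituitaries and 0 in MOET 3217, 3218 and 5932. Its contrast was 4.06 on the log2 scale of CPM with a prior count of 2 (SE 0.26, limma adjusted p = 0.0162 without calf 3213). The gene was at 0.0182, 0.0589 and 0.0371 CPM in hypothalamus, testicle and adrenal, below the 0.149 CPM that 3 counts stand for, so an effect of origin could not be measured there and the contrast restates the pituitary difference. Taking all libraries as independent gave 112 genes in edgeR, and voom with the calf as a block gave 85.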

How the data were processed

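Poly(A)-selected RNA was sequenced without strand information as paired-end reads of 100 bases and filtered with SOAPnuke, per the labels' protocols. STAR 2.7, HTSeq and the bosTau9 build were used, per the submitters' processing notes. Annotation and counting options were not given in the sources used here. Whole-number counts for 27607 genes in 32 libraries, with 0 columns of other series, were deposited by the authors. They were taken as raw counts, but 5 columns vary less around their group than raw counts would, so whether these were adjusted is not known. Genes were kept with filterByExpr (minimum count 10, minimum total 15), scaled with TMM and tested with edgeR 4.0.16 (glmQLFit, robust; glmQLFTest) in R 4.3.3. The SE is the fold change over the root of F. Differences between tissues used limma 3.58.1 on each calf's log2 CPM (prior count 2). The 4 tissues of a calf carry its number, which pairs libraries across tissues but never IVP with MOET. The smallest total makes 3 counts equal to 0.149 CPM. Alternatives used DESeq2 1.42.0, limma voom, other scalings, filters and covariates, and each calf left out. Scripts were tested on simulated data.

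The members, lists and tests were chosen with earlier results of these data known. The planned hormone, receptor and cell type lists needed symbols, and 0 identifiers matched, so the 10 and the 100 most counted genes stood in for the hormones. Genes were named by smallest p, at most 2 in each direction, and 12 in each direction were summarised. Leaving out calf 3213 was planned with each other calf; giving every result without it was chosen after seeing the data.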

Additional observations from a re-analysis of the deposited data

Results flagged for a closer look

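IVP 5841 lay far from the other 3 IVP calves in the share of counts of the gene of rank 5, 1.86% against 0.947% to 1.07%, and of the gene of rank 10, 0.468% against 0.373% to 0.379%. In the MOET group, calf 3213 was the only one with any reads of ENSBTAG00000021565 (0.0501 CPM against 0) and of the gene in place 4 by p among those that rose (0.0501 CPM against 0), in each case a single count and below the floor of 3 counts. These 4 were found among 82 groups of 4 values, and chance alone sets apart about 5% of groups of separate, continuous values. That rate does not hold for flags that rest on a single count. Nor does it hold for MOET groups, where the column of calf 3213 lies near the mean of the others.

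Among genes that rose, the one in place 3 by p had a pituitary effect of embryo origin 2.51 (log2) above the mean effect in the other tissues. This came from limma on 8 calves (adjusted p = 0.0257). The gene was at 9.93 CPM in hypothalamus, but at 0.193 CPM in testicle and 0.0857 CPM in adrenal. These last levels lie near or below the 0.149 CPM that 3 counts stand for. An effect of origin could thus hardly be measured in testicle and adrenal, and the value is largely a comparison with the hypothalamus. The same contrast was 3.82 for the gene in place 4 (limma adjusted p = 0.0137). That gene was below the floor of 3 counts in the other tissues (0.0182 to 0.0589 CPM). No effect of origin could be measured there, so its value restates the pituitary difference and does not compare tissues. Without calf 3213 the values were 2.59 (adjusted p = 0.125) and 4.06 (adjusted p = 0.0162).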

How the results depend on the processing

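The 4 genes named by identifier kept their direction in every alternative. ENSBTAG00000001474 missed the threshold in 1 of 29 (adjusted p up to 0.0618), ENSBTAG00000005658 in 2 (up to 0.133) and ENSBTAG00000012121 in 4 (up to 0.133). The gene of rank 4 by counts missed it in 18 of 27, that of rank 6 in 17 of 28 and that of rank 7 in 14 of 28. The number of genes called, 2417, was 342 with library totals in place of TMM, 7561 in limma voom with quality weights (where calf 3213 had a weight of 44.8 against 0.289 to 1.15), 266 with age as a covariate and 340 with all 32 libraries in 1 fit. It ran from 378 (without MOET 3213) to 2822 (without MOET 5932) when a calf was left out. Only calf 3213 was older than 104 days, so age as a covariate and leaving out that calf are no separate checks. Among alternatives added after seeing the data, a score shared with the other tissues as a covariate gave 275. The score weighted genes by the first principal component of the spread within origins in the other tissues. In the pituitary it ran from -1.08 to -0.160 in IVP and from -0.0221 to 2.02 in MOET. It thus divided the origins, and the parts of the score and of origin cannot be told apart. Without calf 3213 the number of genes called was 2 with that score, 1481 in DESeq2, 1217 in voom and 49 with library totals, and 1, 8, 13, 15, 91, 23 and 750 with IVP 3208, 3209, 5833 and 5841 and MOET 3217, 3218 and 5932 also left out.

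With 10 bins, 18.9% were called in the highest and 6.26% in the lowest. The mean distance of an IVP library, 0.295, was 0.165 over genes of at least 10 CPM and 0.340 with a prior count of 0.5, and leaving out a calf gave 0.315 without IVP 3208 and up to 0.325 without IVP 5833. The 7 genes of the difference between tissues became 112 with no block by calf, 85 with the calf as a replicate block, 1 with age, and 0 to 16 when a calf was left out (0 without 3208, 3218 or 5932, 16 without 3209, 12 without 5833, 1 without 3213 or 3217). It was 1 without calf 3213 and adrenal IVP 5833. Within the pituitary, IVP and MOET calves share no number, so no block was possible there. Precision rests on 3 or 4 calves a group and on totals of at least 20164948 counts, and their parts were not separated.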
